A study of Mus musculus with 20 samples.

Results

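The 10 genes described here encode amino acid transporters of the cell membrane, and they were taken by symbol from a table of raw read counts in mouse heart. All 10 were among the 15956 genes listed and among the 13991 tested. They are the cationic amino acid transporter Slc7a1, the light chains Slc7a5, Slc7a6, and Slc7a8 with their shared heavy chain Slc3a2, the neutral amino acid transporters Slc38a1, Slc38a2, Slc38a4, and Slc1a4, and the taurine transporter Slc6a6. The left ventricle of 20 male mice from The Jackson Laboratory was sequenced, with 5 mice on each of 4 purified diets. These were a normal protein diet (NP), a low protein diet (LP), a high-fat diet (HF), and a high-fat diet with low protein (HF + LP), where casein was the protein source and carbohydrate replaced the protein left out. No mouse carried a transgene or received another agent according to the labels, which give an age of 18 months for every animal, while the methods of the study describe a younger age at tissue collection. Mice are named below by diet and by the animal number in the labels, and the samples are therefore separate animals.

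Heart muscle takes up amino acids from blood for protein synthesis and as fuel. Slc7a5, Slc7a6, and Slc7a8 are exchangers that reach the cell surface only when joined to the glycoprotein encoded by Slc3a2, and large neutral amino acids such as leucine enter through several of these pairs. Slc38a1, Slc38a2, and Slc38a4 move small neutral amino acids such as glutamine and alanine inward together with sodium. A shortage of amino acids activates the kinase GCN2 and raises translation of the transcription factor ATF4, and Slc7a1, Slc7a5, Slc3a2, and Slc38a2 are known ATF4-responsive genes in cultured cells. Taurine, carried by the product of Slc6a6, is abundant in heart muscle and is not built into protein.

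Libraries were made with the QuantSeq method, which yields about 1 read per transcript from the 3′ end, so levels of different genes can be compared without dividing by transcript length. Levels are given as CPM, counts scaled to a common library size after TMM normalization, and total counts lay between 12559607 and 23331907 per mouse. Mitochondrially encoded genes took 35.4% to 47.2% of the counts. Transcripts that mark cardiomyocytes summed to 26179 to 41679 CPM, in accord with the labelled tissue, but 6 markers of atrial muscle, which includes Nppa, ranged from 60.4 to 15621 CPM among these ventricular samples. The library of LP mouse 13 stood apart, with a median correlation of 0.908 with the rest of its diet against 0.944 or more for every other library, and LP mouse 20 stood apart in lymphocyte markers (below 3.9 CPM in the other 19 mice, 32.5 CPM in this one). Several values are given without 1 or both of these mice. Because whole tissue was sequenced, fewer cells of a type and less RNA per cell cannot be told apart.

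All 10 genes are protein coding in GENCODE release M21 on GRCm38, and 5 of them share a chromosome with another. Slc38a1 (chr15:96571418-96642913), Slc38a2 (chr15:96687392-96699730), and Slc38a4 (chr15:96994820-97055956) lie on the minus strand within 485 kb of each other. Slc7a6 (chr8:106168857-106198706, plus strand) and Slc7a5 (chr8:121881150-121907694, minus strand) lie on chromosome 8. The remaining genes are Slc7a1 (chr5:148327410-148399904, minus), Slc6a6 (chr6:91684053-91759066, plus), Slc1a4 (chr11:20302180-20332713, minus), Slc7a8 (chr14:54722209-54781946, minus), and Slc3a2 (chr19:8706882-8723369, minus). Slc6a6 overlaps 1 other listed gene, Gm45828, on the same strand, and how the authors assigned reads there is not given in the sources used here.

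Levels differed widely among the 10 genes. Slc38a2 was the most abundant, with a mean of 108 CPM over the 20 mice, followed by Slc6a6 with 76.8 CPM and Slc3a2 with 46.1 CPM. These 3 genes made up 85.3% of the summed level of the 10. Slc7a1 followed with 22.3 CPM, and the other 6 genes lay between 0.847 CPM for Slc7a5 and 5.82 CPM for Slc38a1. The heavy chain thus stood far above its light chains Slc7a6 (3.37 CPM), Slc7a8 (1.63 CPM), and Slc7a5. Slc7a5 was counted 2 to 38 times per library and Slc1a4 15 to 48 times, so counting error alone gives a coefficient of variation of 26.4% for the former and 19.7% for the latter. The sum of the 10 levels averaged 252 ± 14.2 CPM in NP mice, 283 ± 50.5 CPM in LP mice, 262 ± 18.3 CPM in HF mice, and 286 ± 35.4 CPM in HF + LP mice (mean ± SD, n = 5), which overlap.

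**Figure D1:**
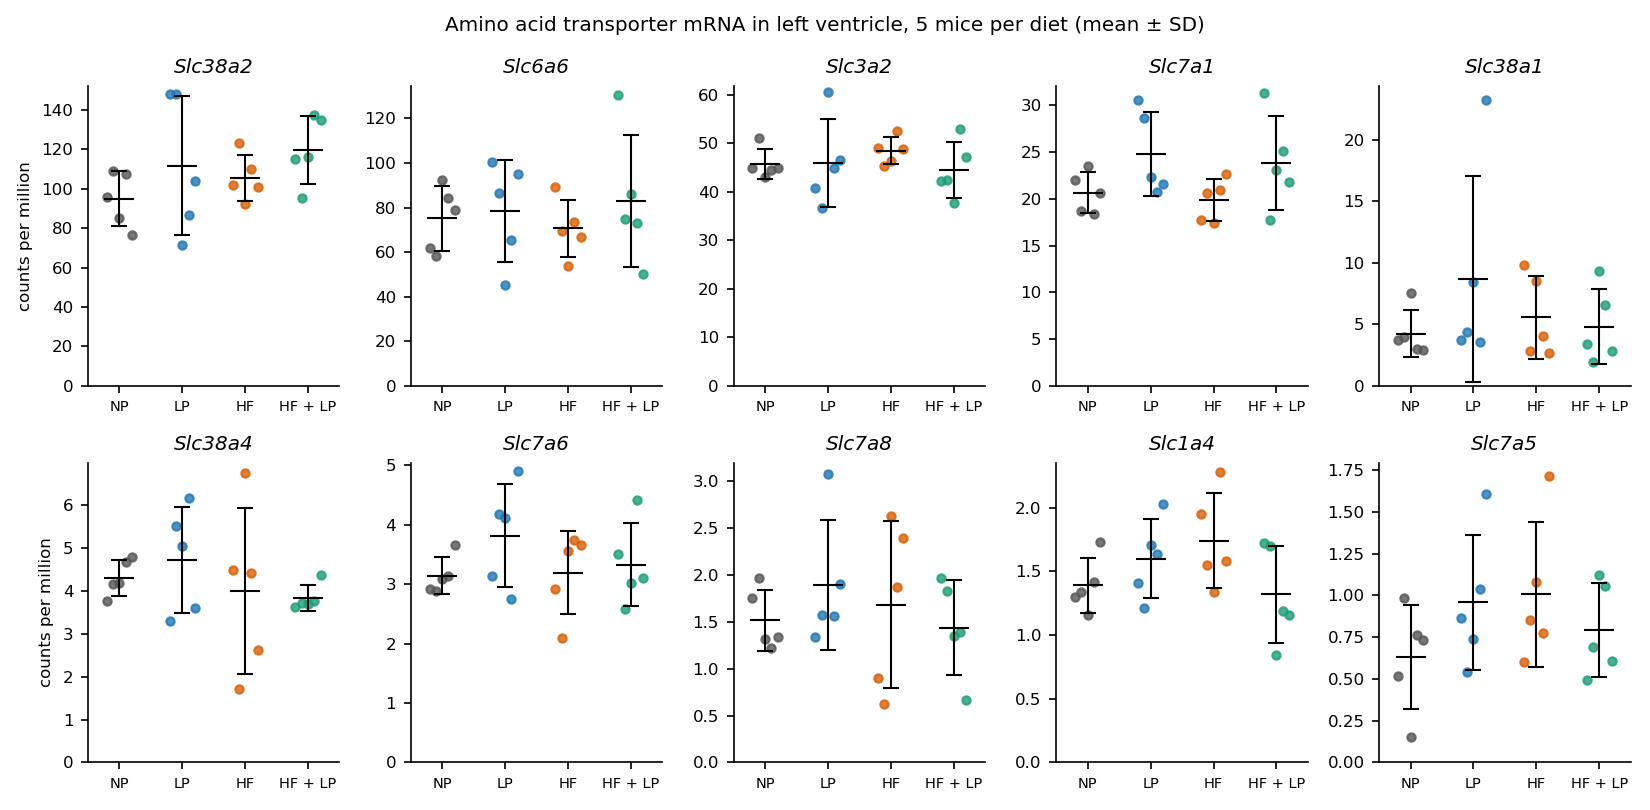
Level of each transporter in CPM (vertical axis, from 0, a scale of its own per panel) in NP, LP, HF, and HF + LP mice. Points are mice, and bars give the mean ± SD of 5 mice. The diets overlap in every panel, and 1 LP mouse reaches 23.2 CPM for Slc38a1, where the other 19 mice lie at 9.81 CPM or less.

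Mouse-to-mouse spread within diets also differed. The coefficient of variation within diets was 12.5% for Slc3a2, 16.7% for Slc7a1, 20.0% for Slc38a2, 27.4% for Slc6a6, and 83.4% for Slc38a1. Among 1001 genes of like level, Slc38a1 lay at percentile 98.1 of this spread and Slc6a6 at percentile 88.9, whereas Slc3a2 lay at percentile 32.0. Slc1a4 varied little for its level (21.6%, percentile 8.19), close to its counting error.

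None of the 10 transporters was called in any of the 7 comparisons between diets. A gene was called at an adjusted p under 0.01 (edgeR's quasi-likelihood test, Benjamini-Hochberg over all genes tested) and a mean normalized count over 50, which 7 of the 10 reached. Slc7a5, Slc7a8, and Slc1a4 had means of 14.4, 27.7, and 25.7 and could not be called by this rule, and without that minimum they were not called either. DESeq2 called 0 of the 10 in each comparison as well, and of all genes 163 for HF compared to NP, 4 for LP compared to NP, 16 for HF + LP compared to HF, and 84 for HF + LP compared to LP. Of all genes tested, the share called by edgeR was 0.264% for HF compared to NP, 0% for LP compared to NP, 0% for HF + LP compared to HF, 0.1% for HF + LP compared to LP, 0% for protein content averaged over both fat levels, 1% for fat content averaged over both protein levels, and 0% for the interaction. With each mouse left out in turn, the number of all genes called moved from 37 to between 20 (without NP mouse 6 or HF mouse 4) and 69 (without LP mouse 13) for HF compared to NP, from 14 to between 1 (without HF + LP mouse 2 or 4) and 16 for HF + LP compared to LP, and from 140 to between 79 (without HF mouse 4) and 198 for fat content. For no transporter did the 5 mice of one diet lie wholly above or below those of the diet compared, which 5.67% of all genes did for HF and NP, 0.786% for LP and NP, 1.18% for HF + LP and HF, and 1.87% for HF + LP and LP. At an unadjusted p under 0.05, 1 transporter passed in 1 comparison, Slc7a1 for protein content averaged over both fat levels, where 3.4% of all genes tested did so upward and 2.08% downward.

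**Figure D2:**
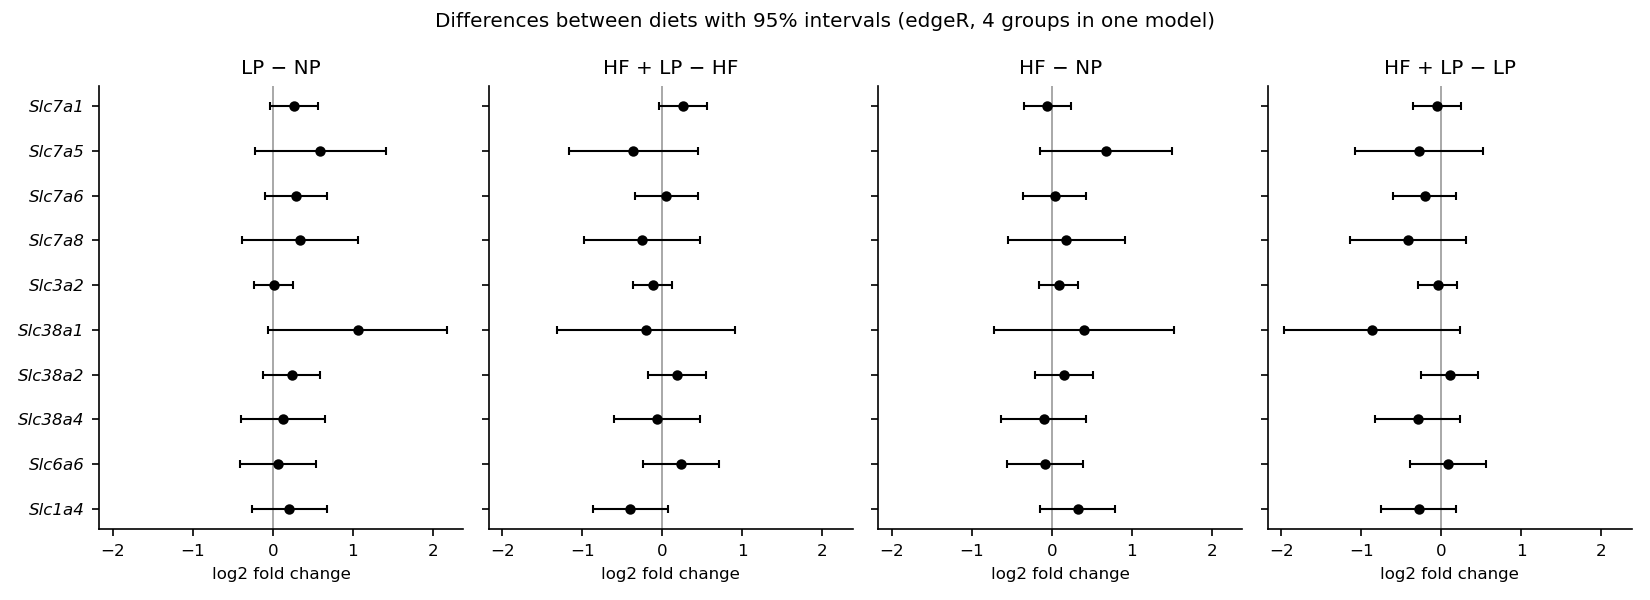
Log2 fold change (horizontal axis) of each transporter in 4 comparisons, with 95% intervals from the edgeR fit. Every interval includes 0, and the intervals of Slc3a2, Slc7a1, and Slc38a2 are the narrowest.

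Protein restriction was examined first on the diet of normal fat content. All 10 log2 fold changes of LP against NP were above 0, with a median of 0.25 beside 0.02 for all genes tested, and none passed the test. Without LP mice 13 and 20, which was chosen after their values had been seen, those of Slc7a8 (-0.02), Slc3a2 (-0.16), and Slc38a1 (-0.10) were below 0, and the median was 0.14. On the high-fat diet, 4 were above 0 and 6 below, with a median of -0.09 beside 0.02 for all genes. The interaction was below 0 for 9 of the 10 transporters, with a median of -0.22 beside -0.01, and adjusted p was 0.721 or more in edgeR's test. Among companion genes described below, it was below 0 for 17 of 21 genes of the ATF4 response (median -0.32). Of 21 other amino acid transporters it was below 0 for 10 (median 0.02). LP mice enter the first and last of these comparisons and HF mice the last 2, so the signs are not independent of each other.

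Slc7a1, the main carrier of arginine and lysine into many cells, had the smallest p of the 10 for protein content averaged over both fat levels. NP mice 3, 4, 5, 6, and 8 had 22.1, 18.7, 23.5, 18.4, and 20.7 CPM. LP mice 2, 5, 13, 15, and 20 had 30.6, 28.6, 22.4, 20.7, and 21.6 CPM. HF mice 1 to 5 had 17.8, 20.6, 17.4, 20.9, and 22.6 CPM, and HF + LP mice 1 to 5 had 31.4, 17.7, 23.0, 25.1, and 21.8 CPM. LP mice 2 and 5 and HF + LP mouse 1 were the highest, and the remaining protein-restricted mice lay among those on normal protein or just above them. The log2 fold change was 0.26 for LP against NP (SE 0.14, 95% interval -0.04 to 0.56) and 0.26 for HF + LP against HF (SE 0.14, -0.04 to 0.56). Averaged over both fat levels it was 0.26 (SE 0.10, 0.05 to 0.47), or 1.20-fold with an interval of 1.03 to 1.39, at an unadjusted p of 0.0182 and an adjusted p of 0.812 in edgeR's quasi-likelihood test. The interaction was 0.00 (-0.42 to 0.42). The value for LP against NP was 0.17 without LP mouse 2, and that for HF + LP against HF was 0.14 without HF + LP mouse 1. With each mouse left out in turn, the averaged value stayed between 0.20 and 0.30 and adjusted p did not pass the threshold.

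The heavy chain and the light chains were considered together, since the proteins work in pairs. Slc3a2 had 44.9, 51.1, 43.0, 44.5, and 44.8 CPM in NP mice 3, 4, 5, 6, and 8, and 40.8, 36.6, 60.6, 44.9, and 46.6 CPM in LP mice 2, 5, 13, 15, and 20. It had 49.0, 45.4, 46.4, 52.6, and 48.7 CPM in HF mice 1 to 5 and 42.1, 42.5, 37.7, 52.9, and 47.2 CPM in HF + LP mice 1 to 5. LP mice included both the lowest and the highest value of the 20. The 95% intervals of its log2 fold change were -0.24 to 0.25 for LP against NP, -0.16 to 0.33 for HF against NP, -0.37 to 0.12 for HF + LP against HF, and -0.29 to 0.20 for HF + LP against LP, so that a difference of more than 1.29-fold lay outside all 4 intervals.

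Slc7a6, an exchanger of cationic and neutral amino acids, had a mean level of 3.81 CPM in LP mice and of 3.33 CPM or less in the other diets. Its largest log2 fold change was 0.29 for LP against NP (-0.10 to 0.68, edgeR adjusted p = 0.814), and it was 0.19 without LP mouse 20. Slc7a8, a carrier of both large and small neutral amino acids, ranged from 0.621 CPM in HF mouse 2 to 3.08 CPM in LP mouse 13, and its log2 fold change of 0.34 for LP against NP had an interval of -0.39 to 1.07 and was 0.08 without LP mouse 13. The log2 fold changes of Slc7a5, the leucine-carrying partner of Slc3a2, were 0.68 for HF against NP (-0.14 to 1.50) and 0.60 for LP against NP (-0.23 to 1.42), with means of 0.630 ± 0.313 CPM in NP mice, 0.959 ± 0.405 CPM in LP mice, 1.01 ± 0.434 CPM in HF mice, and 0.794 ± 0.279 CPM in HF + LP mice (SD, n = 5). The former was 0.39 without HF mouse 5 and the latter 0.31 without LP mouse 20.

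The ratio of Slc3a2 to the summed level of the 3 light chains was 8.67 ± 0.577 for NP mice, 7.01 ± 1.26 for LP mice, 8.94 ± 2.87 for HF mice, and 8.15 ± 1.58 for HF + LP mice (SD, n = 5), and the diets overlapped. With Slc7a7, a further light chain, in the sum, the ratio was 6.17 ± 1.09 for NP mice, 3.99 ± 1.53 for LP mice, 5.45 ± 2.34 for HF mice, and 6.32 ± 1.95 for HF + LP mice (SD, n = 5), and the diets overlapped as well. Within diets, Slc3a2 and its light chains were compared over the 20 mice after the diet means of log2 CPM had been subtracted, for 3 pairs in all. Pearson's r was 0.19 with Slc7a5 (permutation p = 0.420, adjusted 0.420), 0.32 with Slc7a6 (permutation p = 0.256, adjusted 0.384), and 0.30 with Slc7a8 (permutation p = 0.186, adjusted 0.384). Spearman's rho was 0.24, 0.37, and 0.28, with permutation p-values of 0.344, 0.161, and 0.276 and an adjusted p of 0.344 for each. Leaving out LP mouse 13 and HF + LP mouse 4, the farthest from the median of Slc3a2, gave r of 0.28, 0.14, and 0.13. With each mouse left out in turn, r ranged from 0.05 (without LP mouse 5) to 0.37 with Slc7a5, from 0.18 (without HF + LP mouse 4) to 0.46 with Slc7a6, and from 0.08 (without LP mouse 13) to 0.41 with Slc7a8. None of the 3 relations passed a permutation p of 0.05 in these 20 mice.

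**Figure D3:**
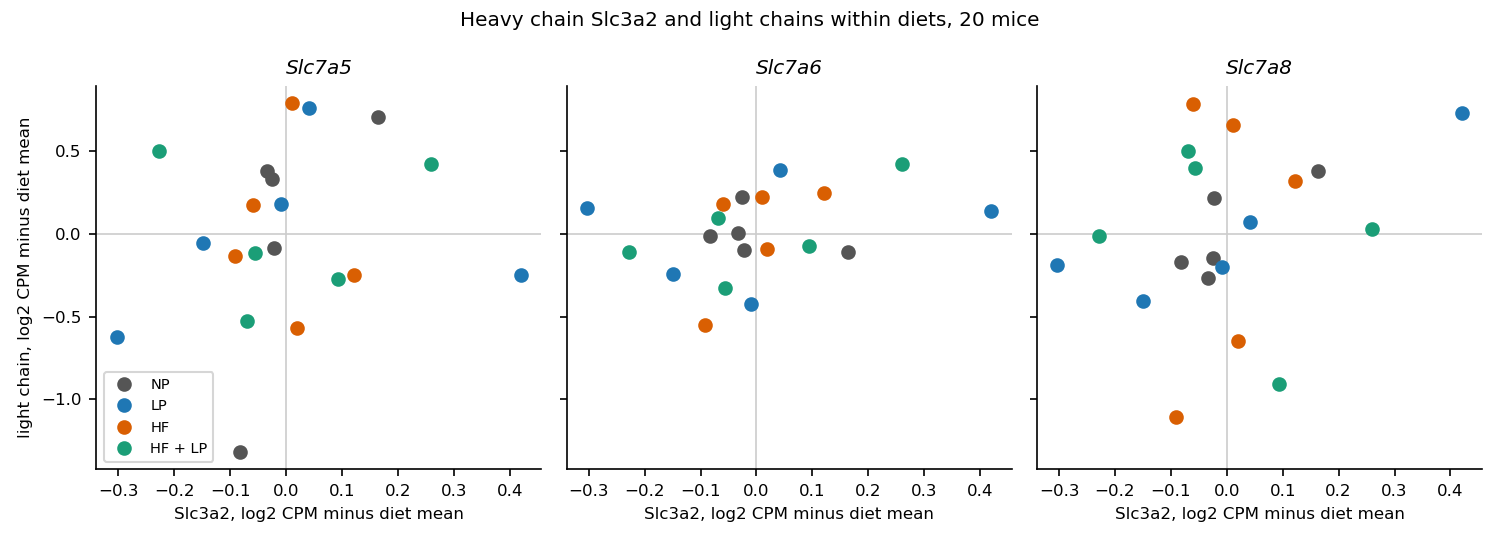
Deviation of each light chain from its diet mean (vertical axis, log2 CPM) against that of the heavy chain Slc3a2 (horizontal axis, log2 CPM), with 1 point per mouse and color for diet. Points scatter on both sides of 0 in all 3 panels, with r of 0.19, 0.32, and 0.30.

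Slc38a2, the sodium-coupled carrier of small neutral amino acids whose mRNA is induced in amino acid-starved cells, was the most abundant of the 10. NP mice 3, 4, 5, 6, and 8 had 96.0, 109, 85.4, 107, and 76.6 CPM, and LP mice 2, 5, 13, 15, and 20 had 148, 148, 71.3, 86.8, and 104 CPM. HF mice 1 to 5 had 102, 123, 92.1, 110, and 101 CPM, and HF + LP mice 1 to 5 had 115, 95.1, 116, 138, and 135 CPM. LP mice 2 and 5, which were also the highest in Slc7a1 among LP mice, were the highest of all, and LP mouse 13 was the lowest. The log2 fold change was 0.23 for LP against NP (-0.13 to 0.60), 0.18 for HF + LP against HF (-0.18 to 0.54), and 0.21 averaged over both fat levels (-0.05 to 0.46, edgeR unadjusted p = 0.104). With each mouse left out in turn, the value for LP against NP ranged from 0.11 without LP mouse 5 to 0.36 without LP mouse 13. Without LP mice 13 and 20 the averaged value was 0.31 at an unadjusted p of 0.0143 and an adjusted p of 0.715 in edgeR's test. LP mice 2 and 5 also had the highest endothelial (635 and 659 CPM) and mural cell marker sums (691 and 699 CPM) of their diet. Their fibroblast and macrophage marker sums were the lowest of their diet. The part of these markers in the levels of Slc38a2 and Slc7a1 was not tested.

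Slc38a1, a glutamine carrier that is found in neurons and lymphocytes as well as in muscle, showed the largest difference and the largest spread. NP mice 3, 4, 5, 6, and 8 had 3.76, 3.94, 7.57, 2.99, and 2.93 CPM. LP mice 2, 5, 13, 15, and 20 had 3.76, 4.35, 8.41, 3.57, and 23.2 CPM. HF mice 1 to 5 had 9.81, 2.796, 8.54, 4.04, and 2.71 CPM, and HF + LP mice 1 to 5 had 3.38, 1.95, 9.30, 6.60, and 2.86 CPM. One or 2 mice of each diet stood above the rest, and LP mouse 20 stood above all. The log2 fold change of LP against NP was 1.06 (-0.05 to 2.18, edgeR adjusted p = 0.712), and it was 0.28 without LP mouse 20 and -0.10 without LP mice 13 and 20. The interaction was -1.26 (-2.84 to 0.31) and -0.11 without these 2 mice.

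Markers of other cell types were high in some of the mice with much Slc38a1. In LP mouse 20 the 5 listed lymphocyte markers of 6 summed to 32.5 CPM, which included 15.1 CPM of Cd3e and 11.6 CPM of Cd3g, both T cell receptor components, and 6 adipocyte markers summed to 141 CPM, beside 304.0 CPM in LP mouse 13 and 68.4 CPM or less in the other 18 mice. NP mouse 6 had 48.4 CPM of adipocyte markers with 2.99 CPM of Slc38a1, and HF mouse 1, with the most Slc38a1 of its diet, had the fewest lymphocyte markers of its diet. Lymphocyte markers lay between 1.13 and 2.18 CPM in NP, 2.08 and 32.5 CPM in LP, 1.27 and 3.12 CPM in HF, and 1.41 and 3.31 CPM in HF + LP. Atrial markers were the highest of their diet in NP mouse 5 (3599 CPM), HF mouse 1 (12165 CPM), and HF + LP mouse 3 (5189 CPM), the mice with the most Slc38a1 in those diets. They summed to 15621 CPM in LP mouse 13 and 4414 CPM in HF mouse 3, whereas LP mouse 15 had 5511 CPM of atrial markers with 3.57 CPM of Slc38a1. The part of these markers in the level of Slc38a1 was not tested.

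**Figure D4:**
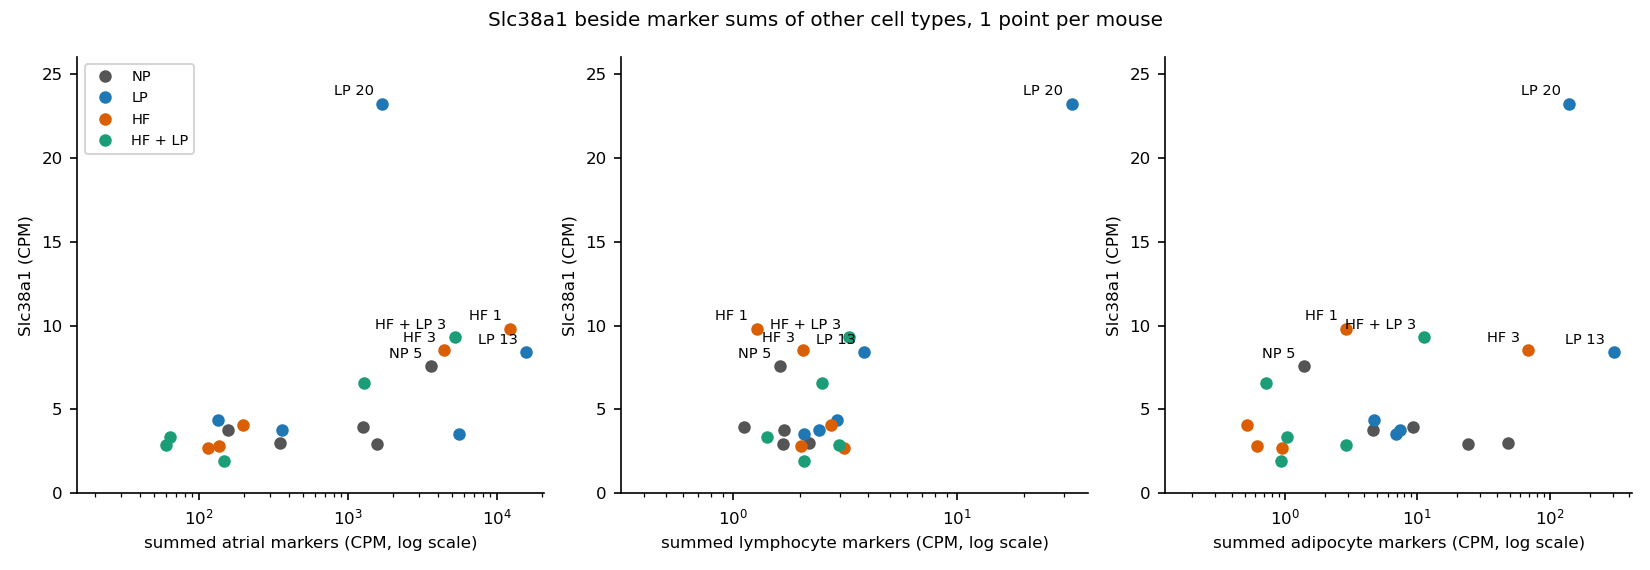
Slc38a1 (vertical axis, CPM) against the summed level of atrial, lymphocyte, and adipocyte markers (horizontal axes, CPM, log scale), with 1 point per mouse and color for diet. LP mouse 20 stands apart with 23.2 CPM of Slc38a1 and 32.5 CPM of lymphocyte markers, and the mice from 7.57 to 9.81 CPM of Slc38a1 have 3599 to 15621 CPM of atrial markers.

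Slc38a4, a related carrier best known from liver and placenta, had mean levels of 4.31 ± 0.421 CPM in NP mice, 4.72 ± 1.24 CPM in LP mice, 3.99 ± 1.94 CPM in HF mice, and 3.83 ± 0.307 CPM in HF + LP mice (SD, n = 5). It spread from 1.71 to 6.74 CPM among HF mice but only from 3.62 to 4.38 CPM among HF + LP mice. Its log2 fold changes lay between -0.30 for HF + LP against LP (-0.83 to 0.23) and 0.13 for LP against NP (-0.40 to 0.66), the former from -0.40 to -0.19 and the latter from 0.02 to 0.23 with each mouse left out in turn.

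Slc6a6, the taurine transporter, had 61.8, 58.4, 92.6, 84.2, and 78.8 CPM in NP mice 3, 4, 5, 6, and 8, and 101, 86.4, 45.3, 65.3, and 95.3 CPM in LP mice 2, 5, 13, 15, and 20. It had 89.3, 69.7, 53.9, 73.7, and 66.7 CPM in HF mice 1 to 5 and 130, 74.7, 85.9, 73.3, and 50.1 CPM in HF + LP mice 1 to 5. The lowest and the highest values were both from protein-restricted mice, LP mouse 13 and HF + LP mouse 1, and HF + LP mouse 1 was also the highest in Slc7a1. Its log2 fold change for protein content averaged over both fat levels was 0.15 (-0.19 to 0.48), or 0.04 without HF + LP mouse 1, and for fat content averaged over both protein levels -0.01 (-0.34 to 0.33).

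Slc1a4, a carrier of serine, alanine, and cysteine, had 1.39 ± 0.214 CPM in NP mice, 1.598 ± 0.310 CPM in LP mice, 1.74 ± 0.374 CPM in HF mice, and 1.32 ± 0.380 CPM in HF + LP mice (SD, n = 5). Its log2 fold change was 0.21 for LP against NP (-0.26 to 0.67, and 0.11 without LP mouse 20) and -0.40 for HF + LP against HF (-0.87 to 0.07). The interaction of -0.61 (-1.27 to 0.05) had the smallest p of the 10 transporters for that comparison, 0.0700 unadjusted and 0.721 adjusted in edgeR's test.

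High fat content was examined at each protein level. For HF against NP, 7 log2 fold changes of the 10 were above 0 and 3 below, with a median of 0.12 beside 0.00 for all genes tested, and unadjusted p was 0.101 or more in edgeR's test. For HF + LP against LP, 2 were above 0 and 8 below, with a median of -0.24 beside -0.03, and unadjusted p was 0.118 or more. Without LP mice 13 and 20 the median was -0.05, with 2 above 0 and 8 below, and Slc3a2 (0.12) and Slc38a1 (0.29) were then the 2 above 0. Averaged over both protein levels, the transporters lay between -0.23 for Slc38a1 and 0.20 for Slc7a5, with a median of -0.03 beside -0.02, and unadjusted p was 0.278 or more. That of Slc38a1 was 0.15 without LP mouse 20, and that of Slc7a5 was 0.05 without HF mouse 5.

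**Figure D5:**
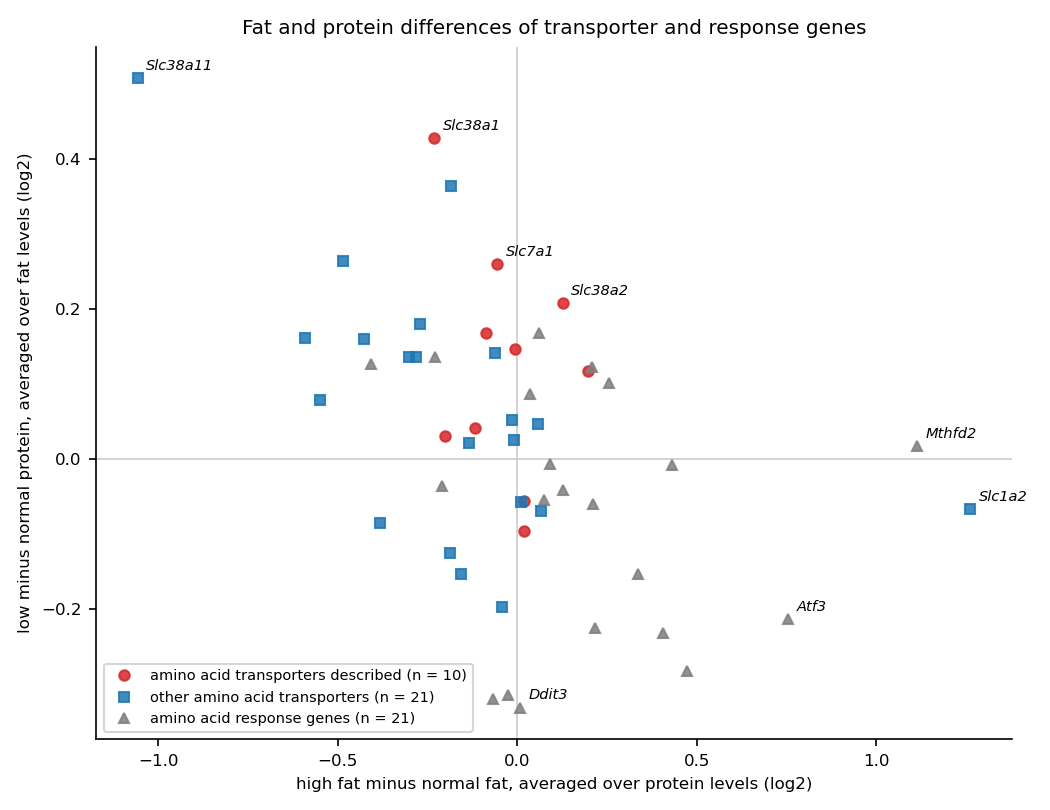
Log2 difference by fat content averaged over protein levels (horizontal axis) and by protein content averaged over fat levels (vertical axis) for the 10 transporters, 21 other amino acid transporters, and 21 amino acid response genes. The 10 transporters lie between -0.23 and 0.20 by fat content, while Slc1a2 lies at 1.26 and Mthfd2 at 1.114.

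Other amino acid transporters of the same and related families were counted beside the 10. Of 45 named, 27 were listed and 21 tested, 14 of them with a mean normalized count over 50, and 0 were called in any of the 7 comparisons by edgeR or DESeq2. At an unadjusted p under 0.05, 1 was higher and 0 lower for HF against NP, 2 higher and 0 lower for LP against NP, 1 higher and 0 lower for HF + LP against HF, and 1 higher and 5 lower for HF + LP against LP. Of all genes tested, 5.17% were higher and 7.91% lower at that level for HF against NP, 5.02% and 2.21% for LP against NP, 2.41% and 2.43% for HF + LP against HF, and 6.26% and 9.66% for HF + LP against LP. Averaged over protein levels, 1 was higher and 6 lower in high fat, with a median of -0.18 beside -0.02 for all genes, where 8.28% of all genes tested passed upward and 12.6% downward. Only Slc1a2, an excitatory amino acid carrier that takes up glutamate, had an adjusted p under 0.01.

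Slc1a2 had 0.649, 1.05, 0.386, 0.862, and 0.400 CPM in NP mice 3, 4, 5, 6, and 8, and 0.470, 0.605, 0.371, 0.669, and 0.634 CPM in LP mice 2, 5, 13, 15, and 20. HF mice 1 to 5 had 1.42, 1.94, 0.978, 1.40, and 1.221 CPM, and HF + LP mice 1 to 5 had 1.53, 1.51, 1.18, 2.24, and 1.34 CPM. All 5 HF + LP mice lay above all 5 LP mice, and NP mouse 4 lay above HF mouse 3. The log2 fold change for fat content averaged over protein levels was 1.26 (SE 0.21, 0.83 to 1.69) with an adjusted p of 0.00162 in edgeR's test, and Slc1a2 was not called because its mean normalized count was 17.7. With the animal number as a block the adjusted p was 0.0907.

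Slc38a11, a further member of the Slc38 family, had a log2 fold change of -1.06 for fat content averaged over protein levels (-1.76 to -0.36, edgeR adjusted p = 0.0738), at a mean normalized count of 10.5, and -1.19 to -0.89 with each mouse left out in turn. Other named transporters are given by their values. Slc1a5, a neutral amino acid exchanger, had a log2 fold change of -0.97 for HF + LP against LP (-1.66 to -0.28, edgeR adjusted p = 0.164), where LP mice ranged from 7.74 to 47.9 CPM, and -0.47 without LP mouse 13. Slc38a10, a member of the Slc38 family with mean levels of 61.9 to 88.4 CPM by diet, had -0.38 for fat content averaged over protein levels (-0.68 to -0.09, edgeR adjusted p = 0.127). Slc38a9, a lysosomal arginine sensor, had 0.22 for HF + LP against HF (0.02 to 0.43, edgeR adjusted p = 0.940), and Slc38a3, a glutamine carrier, had -0.37 for LP against NP (-0.76 to 0.02, edgeR adjusted p = 0.714) and -0.22 without LP mouse 13.

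Genes of the ATF4 response to amino acid shortage were examined as companions of the transporters. Of 22 named, all were listed, 21 were tested, and 14 had a mean normalized count over 50. Mthfd2, a mitochondrial enzyme of one-carbon metabolism, rose in HF compared to NP (log2 fold change 1.49, SE 0.20, edgeR adjusted p = 0.000527) and was the only one called, there and for fat content averaged over protein levels (1.114, SE 0.14, edgeR adjusted p = 0.000125). HF mice 1 to 5 had 8.32, 7.69, 6.23, 7.42, and 7.37 CPM of Mthfd2, and the 5 NP mice had 2.08 to 3.24 CPM, without overlap. With the animal number as a block the adjusted p-values were 0.0287 and 0.0191. At an adjusted p under 0.05 and the same minimum of the mean normalized count, Mthfd2, Nupr1, and Atf5 were higher for fat content averaged over protein levels, 3 of the 21 tested, where 1.23% of all genes tested were higher by that rule. Atf3, with an adjusted p of 0.0392, lay below that minimum with a mean of 37.5.

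At an unadjusted p under 0.05, 7 response genes were higher and 0 lower in HF against NP, beside the 5.17% and 7.91% of all genes given above. Cardiomyocyte markers summed to 27539 to 34488 CPM in HF mice and 35174 to 41679 CPM in NP mice, and mitochondrially encoded genes took 38.1% to 39.8% and 41.3% to 47.1% of the counts, both without overlap. The part of these in the values was not tested. Nupr1, a stress-induced chromatin-binding protein, had a log2 fold change of 0.59 (0.25 to 0.93, edgeR adjusted p = 0.0745), and Atf3, a stress-induced transcription factor, had 1.107 (0.50 to 1.71, adjusted p = 0.0621). Under protein restriction 1 response gene was higher and 0 lower at that level in LP against NP, where 5.02% and 2.21% of all genes tested passed, and 0 were higher and 3 lower in HF + LP against HF, where 2.41% and 2.43% did. The 3 were Sesn2, a stress-induced leucine sensor, with a log2 fold change of -0.89 (-1.52 to -0.27, edgeR adjusted p = 0.578), Nupr1 with -0.42 (-0.75 to -0.08, adjusted p = 0.754), and the transcription factor Ddit3 with -0.38 (-0.75 to -0.01, adjusted p = 0.999), which was -0.19 without HF mouse 2. The gene higher in LP was Asns, asparagine synthetase, with a log2 fold change of 0.83 (0.17 to 1.49, edgeR adjusted p = 0.609) and 5.00 CPM in LP mouse 13 beside 1.33 to 2.75 CPM in the other LP mice. Without LP mouse 13 its log2 fold change was 0.44 at an unadjusted p of 0.127 in edgeR's test. Asns was also higher in HF against NP, at 0.98 (0.33 to 1.64, edgeR adjusted p = 0.134). It had -0.63 in HF + LP against HF (-1.27 to 0.01). Its interaction was -1.46 (-2.38 to -0.54, edgeR adjusted p = 0.614), with the smallest p of the response genes for that comparison. Atf4 itself had 78.4 ± 18.2 CPM in NP mice, 79.9 ± 10.8 CPM in LP mice, 96.5 ± 18.0 CPM in HF mice, and 87.0 ± 10.4 CPM in HF + LP mice (SD, n = 5).

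Promoters were searched for the element to which ATF4 binds with C/EBP partners, written TGATGNAA and sought on both strands, from 250 bases before to 50 bases after each transcription start in RefSeq on GRCm38.p6. It was present in 3.97% of 32851 promoters and in at least 1 promoter of 4.51% of 27025 genes. Of the 10 transporters 7 had an entry with 11 promoters in all, and Slc1a4 was the only one of these 7 with a match. Slc7a5, Slc38a1, and Slc6a6 had no entry and were not searched. Sequence outside this window was not searched for any gene. Among the other transporters 2 of 35 genes with an entry had a match, Slc7a11 and Slc7a7, and among the response genes 7 of 21 did. The 30 bases around the match are shown for Slc1a4 and for the response genes named above that had one, 5′ to 3′ on the strand that reads TGATGNAA, with the match in capitals. A match is a description of these letters and not evidence of binding.
Slc1a4, chr11:20332699-20332728, plus strand: caggctggagaTGATGCAAcgcaggaggca
Atf3, chr1:191183425-191183454, plus strand: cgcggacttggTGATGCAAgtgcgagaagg
Asns, chr6:7693214-7693243, minus strand: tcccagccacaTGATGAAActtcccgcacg
Nupr1, chr7:126625562-126625591, plus strand: caagccctgtcTGATGCAAtctggcccttt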

How the data were processed

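The authors sequenced left ventricular RNA of 20 mice as QuantSeq 3′ mRNA libraries on a NextSeq instrument, used BlueBee software for alignment, and deposited raw counts per Ensembl gene and mouse, without normalization. The submitters' processing notes name GRCm38 and DESeq2 1.22.2, and the counting program and annotation are not given in the sources used here. Every listed gene had 60 counts or more in all.

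Mice were grouped by the sample labels. Ensembl identifiers were matched to GENCODE M21 symbols for 15917 of 15956 genes. In edgeR 4.0.16 under R 4.3.3, genes were filtered by filterByExpr, scaled by TMM, and fitted with a quasi-likelihood model of the 4 diets, with Benjamini-Hochberg adjustment over 13991 genes. The calling rule followed the thresholds of the study. Standard errors came from the F statistic, so 95% intervals are approximate. Log2 CPM used a prior count of 2, and correlations 100000 permutations within diets. The script was tested on simulated data.

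The transporters and both companion lists were chosen with earlier results of these data known, and no p was adjusted over a list. Companion genes named are those called and up to 3 with the smallest p per list and comparison, of which not all are described, and Atf4, Slc7a11, and Slc7a7 were named where they fall outside that rule after their values or matches had been seen. Alternatives were RLE size factors, DESeq2 1.42.0, 2 other filters on low counts, mitochondrially encoded genes left out, other thresholds, a covariate from the first number of each library name, a block for the animal number, models of the compared groups alone, and each mouse left out. Leaving out LP mice 13 and 20 together, and all alternatives for the companion lists, were chosen after the data had been seen. Libraries of the same diet differed beyond sampling noise in all 40 pairs.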

Additional observations from a re-analysis of the deposited data

Results flagged for a closer look

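Among 48 groups of 5 mice examined, for the 10 transporters, Slc1a2, and Mthfd2 in each diet, 4 held a mouse whose gap to the nearest other mouse exceeded 0.71 of the group's range, the critical value of Dixon's test. Chance alone gives such a gap in about 1 of 20 groups. For Slc3a2, NP mouse 4 had 51.1 CPM and the next mouse 44.9, a gap of 0.771 of the range. For Slc38a1, NP mouse 5 had 7.57 CPM and the next mouse 3.94, a gap of 0.783, and LP mouse 20 had 23.2 CPM and the next mouse 8.41, a gap of 0.753. For Slc38a4, HF + LP mouse 5 had 4.38 CPM and the next mouse 3.76, a gap of 0.814 in a group of narrow range.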

How the results depend on the processing

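No transporter was called under any of the 31 alternatives, which held for all 214 counts over the comparisons to which they applied, with 0 to 0 called when each mouse was left out. Of 1986 log2 fold changes of the transporters under the alternatives, 110 had another sign than in the model reported, none of them called, and the largest shift was that of Slc38a1 in LP against NP, from 1.06 to -0.10 without LP mice 13 and 20. Over 11 same-numbered pairs of different diets the correlation of deviations ran from -0.55 to 0.48 with a median of -0.02, and 5 exceeded 0.1. Each value comes from 1 pair of mice, so these values cannot decide whether the animal numbers pair the mice. With the animal number as a block 0 transporters were called, Slc7a1 had a log2 fold change of 0.37 for protein content averaged over fat levels, and the calls over all genes moved from 37 to 2 for HF against NP, from 14 to 0 for HF + LP against LP, and from 140 to 13 for fat content averaged over protein levels. Of the response genes, 0 were then called for HF against NP and 0 for fat content, in place of Mthfd2. Under the block the correlations of Slc3a2 were 0.24, 0.26, and -0.11 with Slc7a5, Slc7a6, and Slc7a8, and over all alternatives the smallest unadjusted permutation p was 0.0469 (adjusted 0.141), for Slc7a8 without HF + LP mouse 5. At an adjusted p under 0.05, 3 response genes were called for fat content averaged over protein levels in place of 1, where 172 of all genes tested were called as higher, and without a minimum of the mean normalized count 1 of the other transporters, Slc1a2, was called there. DESeq2 called 163, 84, and 398 genes of all for those 3 comparisons, only the groups compared gave 61 for HF against NP and 0 for HF + LP against LP, leaving out LP mice 13 and 20 gave 76 and 4, and no transporter was among any of these. The causes were not tested. Depth limits Slc7a5, Slc7a8, and Slc1a4, with fewer than 30 normalized counts on average.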

Other observations

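Slc7a7, a light chain that pairs with Slc3a2 and exports cationic amino acids, varied among mice more than any of the 3 light chains described above, and its values are given here because they were noticed after they had been seen. It had 20.7 CPM in LP mouse 13, 11.9 in HF mouse 1, 9.88 in LP mouse 15, 6.02 in HF mouse 3, 4.54 in HF + LP mouse 3, and 4.02 in NP mouse 5. The summed atrial markers of these mice, in the same order, were 15621, 12165, 5511, 4414, 5189, and 3599 CPM. Their summed macrophage markers, in the same order, were 307, 167, 269, 209, 135, and 141 CPM, beside 96.3 to 257 CPM in the other mice. In the remaining 14 mice Slc7a7 reached 3.55 CPM at most, in LP mouse 20, where atrial markers summed to 1689 CPM. The log2 fold change of Slc7a7 was 1.71 for LP against NP (0.10 to 3.33, edgeR adjusted p = 0.664) and 0.78 without LP mouse 13. The interaction was -2.90 (-5.19 to -0.60, edgeR adjusted p = 0.675) and -1.98 without that mouse. The part of atrial tissue or of macrophages in these values was not tested.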
